A study of Mus musculus with 19 samples.

Results

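The interferon-stimulated genes are 37 genes whose transcription type I, II or III interferons raise in most cells, chosen by name and matched to the gene identifiers of the deposited counts through the GENCODE symbols of the mouse genome GRCm38. All 37 were found among the 49089 genes counted, and all 37 were among the 17222 genes that were tested, which reached 3 CPM (counts scaled to library size) or more in at least 3 of the 19 libraries. Their lowest count in any library was 26, so none of them was near the limit of detection. RNA was sequenced from endometrium that was scraped from the myometrium of wild-type C57Bl/6 mice. The estrus group (CONT, 3 libraries, numbered 1, 2 and 4) came from virgin, untreated females around ovulation, whose age is not given. The INT group (4 libraries) came from females mated with intact Balb/c males at 8 to 14 weeks of age and collected on day 3.5 post coitum (pc). The SVX, SVX_VAS and VAS groups (4 libraries each) came from C57Bl/6 females mated with surgically modified Balb/c males, also on day 3.5 pc, with no age given for them. These prefixes are those of the count columns. The titles of the SVX samples name vasectomised males, those of the SVX_VAS samples seminal vesicle-deficient males, and those of the VAS samples both surgeries, so no surgery is assigned to any of the 3 groups here. Each library is a pooled sample of an unstated number of animals, so tests measure how pools vary. Mating, hormonal state and day cannot be told apart in a comparison with virgin estrus females.

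Interferons bind cell surface receptors that activate Janus kinases (JAK1 and TYK2 at the type I and III receptors, JAK1 and JAK2 at that of interferon gamma), which phosphorylate transcription factors of the STAT family. STAT2 and IRF9 are parts of ISGF3, a complex that binds the interferon-stimulated response element (ISRE) in the promoters of many interferon-stimulated genes, whereas interferon gamma acts mainly through gamma-activated sites. The products sense foreign nucleic acid, degrade RNA, block viral entry and translation, or modify other proteins. In the female reproductive tract interferon epsilon (Ifne) is made by the epithelium without infection and is under hormonal control, and in ruminants the conceptus signals to the endometrium through an interferon.

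Library depth ranged from 12661266 to 31781270 counts. At this depth a count of 0 allows at most 3 counts, or 0.108 to 0.236 CPM, a limit that covers counting error only. CPM were computed here from the counts on tested genes with TMM factors, which ranged from 0.846 to 1.33. VAS replicates 2 and 3 stood apart from the other libraries. On the first principal component of the 16 mated libraries, which held 70.9% of the variance, they scored 198 and 191 against -31.6 to -21.3 for the other 14. Their largest count for a single gene was 27476 and 26677, against at least 144532 in each other library, and Malat1, an abundant nuclear RNA, was at 548 CPM in both against at least 8263 elsewhere. For VAS, values without these libraries are given for the counts and wherever a named call changed. The epithelial markers, whose defining members Epcam, Krt8 and Cdh1 were present in every library, summed to 3250 to 4445 CPM at estrus and to 441 to 2238 CPM in the mated libraries.

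Promoters from RefSeq (build GRCm38.p6, 250 bases before to 50 after each gene start) were held for 28 of the 37 members. The ISRE core GAAANNGAAA, searched on both strands, was found in 17 of these 28 promoters, or 60.7%, against 3.99% of the 27025 genes with a promoter. The gamma-activated site TTCNNNGAA, which reads alike on both strands, was found in 7 of 28 members and in 9.55% of all genes. The following windows are shown because they carry the core in members that are described below. They lie upstream of the gene start, overlap no annotated exon, read 5′ to 3′ on the strand of the gene, and have the core in capitals in either orientation. Cores that overlap one another form a single run, as in Isg15 with 3 cores and in Oas1a and Bst2 with 2 each.
Isg15: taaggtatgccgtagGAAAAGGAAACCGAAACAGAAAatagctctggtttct
Ifit1: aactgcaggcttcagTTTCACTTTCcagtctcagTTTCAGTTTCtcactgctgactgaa
Ifit3: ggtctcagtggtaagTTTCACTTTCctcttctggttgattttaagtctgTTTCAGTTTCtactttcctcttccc
Ifit3b: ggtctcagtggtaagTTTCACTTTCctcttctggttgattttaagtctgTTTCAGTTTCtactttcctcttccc
Oas1a: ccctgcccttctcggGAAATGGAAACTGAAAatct
Oas3: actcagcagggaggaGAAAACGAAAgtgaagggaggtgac
Bst2: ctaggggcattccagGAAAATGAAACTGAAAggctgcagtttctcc
Rsad2: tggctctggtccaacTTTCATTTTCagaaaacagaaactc
Igtp: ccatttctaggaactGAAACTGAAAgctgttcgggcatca

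The Isg15 window is chr4:156200860-156200911, minus strand and that of Ifit1 is chr19:34640770-34640828, plus strand. Ifit3 and Ifit3b carry an identical stretch in chr19:34583358-34583431, plus strand and chr19:34607754-34607827, plus strand. The OAS windows are chr5:120907526-120907560, minus strand (Oas1a) and chr5:120777710-120777749, minus strand (Oas3). Those of the remaining genes are chr8:71537572-71537617, minus strand (Bst2), chr12:26456548-26456587, minus strand (Rsad2) and chr11:58199507-58199546, plus strand (Igtp). Of the 17 members with the core, 7 were lower than estrus in all 4 mated groups and 6 in none, and of the 11 with a promoter entry but no core, 5 were lower in all 4 and 3 in none. The 9 members without a promoter entry held 6 lower in all 4 and 0 in none. Over all genes tested, 10.6% were lower in all 4 and 76.9% in none. The core was found both in genes that fell and in genes that did not pass the test, and Igtp and Rsad2 are of the second kind. No match says only that these letters are absent from the window.

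To ask how these genes changed between ovulation and the receptive phase, each mated group was compared with estrus. Most members fell. With an FDR of 0.05 or less and a change of at least 1.5-fold (edgeR), 24 of 37 members were lower and 0 higher in INT, where 12.7% of all genes tested were lower and 20.9% higher. In SVX, 28 were lower and 0 higher, against 18.4% and 23.1% of all genes. In SVX_VAS, 25 were lower and 0 higher, against 16.4% and 22.1%. In VAS, 19 were lower and 1 higher, against 17.2% and 23.2%. The median logFC (log2 fold change) over the 37 members was -0.93 in INT, -1.25 in SVX, -1.0 in SVX_VAS and -0.98 in VAS, beside medians between -0.07 and -0.01 over all genes. In all, 18 of 37 members were lower in each of the 4 comparisons, and 9 were lower in none, where 10.6% of all genes were lower in each and 76.9% in none. The 4 comparisons share the 3 estrus libraries, so that their values are not independent of each other.

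Every INT library lay below every estrus library for 24 of the 37 members, a pattern found in 31.3% of all genes. The same held for 30 members in SVX (35.7% of all genes), 23 in SVX_VAS (34% of all genes) and 23 in VAS (28.3% of all genes). The counts depended on single libraries, except in SVX, where leaving out any 1 library gave 28. Without CONT replicate 1 the members called were 15 in INT, 28 in SVX, 17 in SVX_VAS and 13 in VAS, and without CONT replicate 4 they were 15, 28, 20 and 17. Of all genes, 33.6%, 41.5%, 38.5% and 40.4% were called in either direction in the 4 comparisons with all libraries, 28.5%, 37.5%, 33.5% and 35.8% without CONT replicate 1, and 31.5%, 40.3%, 36.8% and 38.5% without CONT replicate 4. Leaving out CONT replicate 2 did not change the counts of members. In INT the count was 16 without INT replicate 3 and 17 without INT replicate 4 (30.3% and 29.4% of all genes). It was 19 in SVX_VAS without SVX_VAS replicate 3 (35%) and 15 in VAS without VAS replicate 3 (36.5%). Other single omissions raised the count, to at most 26 in INT, 28 in SVX_VAS and 22 in VAS (36.3%, 39.8% and 38.6%). Without VAS replicates 2 and 3, 19 members were lower and 0 higher in VAS, where 13.2% of all genes were lower, and 15 of the 20 calls were kept. The calls lost were those of Isg15, Ifit2, Irf9, Mx1 and Irgm1, and Ifih1, Zbp1, Mx2 and Cmpk2 passed the test in their place. Among the 15 members that kept their call were, without these libraries, Trim25 at -1.06 (FDR 0.000656), Irf7 at -1.38 (FDR 0.0144), Dtx3l at -1.06 (FDR 0.00449) and Ifit1 at -1.27 (FDR 0.0478).

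**Figure D1:**
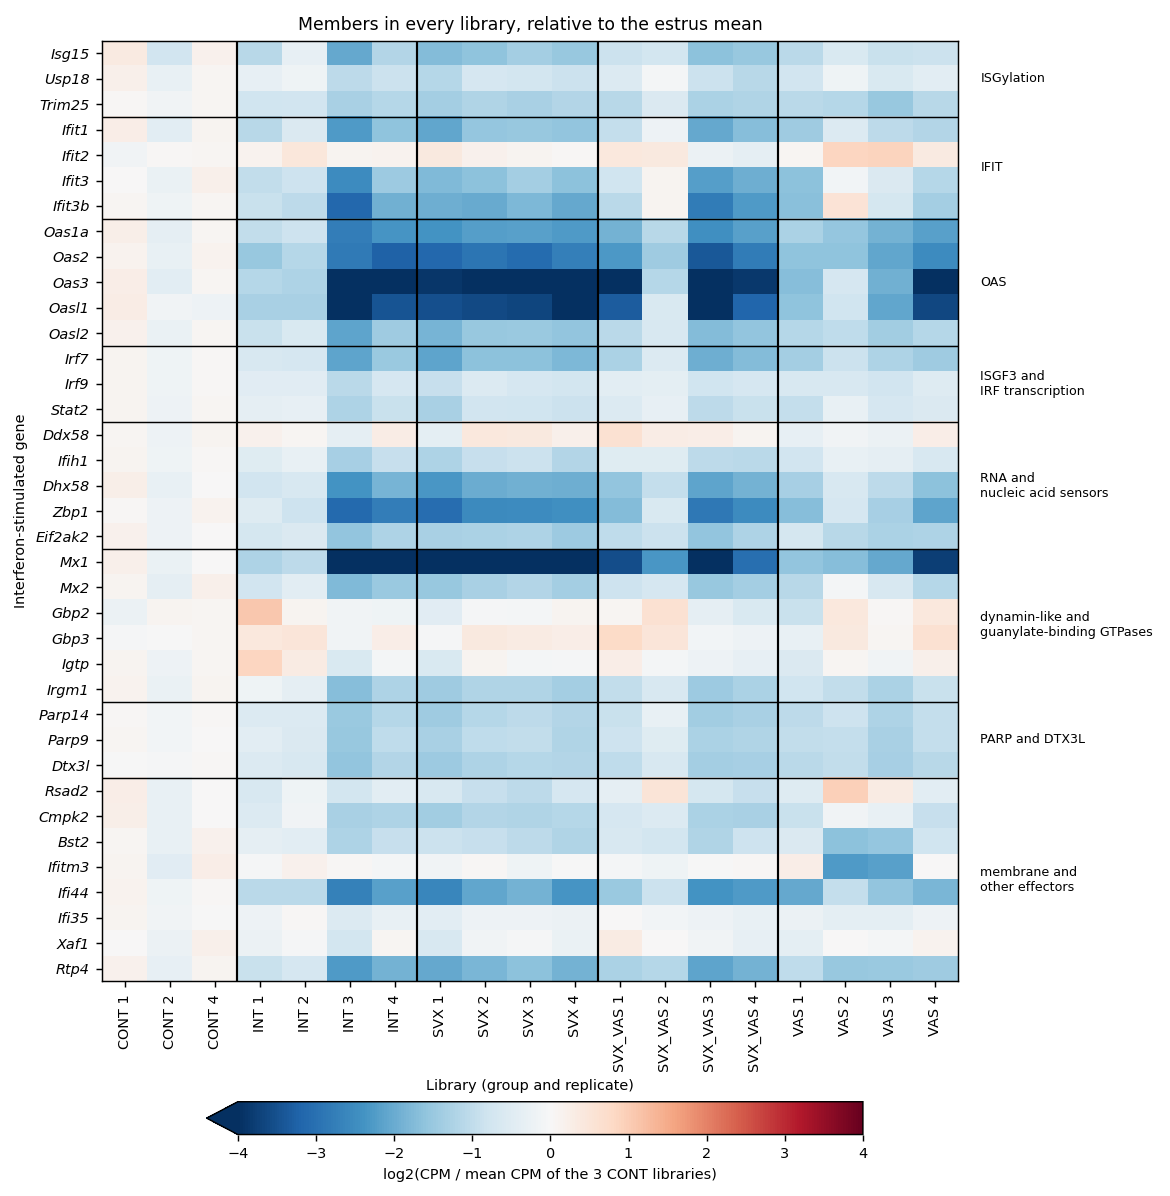
Each cell shows log2 of the CPM of 1 member (rows, grouped by role) in 1 library (columns) relative to the mean of the 3 CONT libraries. Blue is lower than estrus, and Oas3, Oasl1 and Mx1 are the darkest rows, while Ifit2, Ddx58, Gbp2, Gbp3 and Igtp stay pale or turn red.

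The ISGylation genes make, attach and remove the ubiquitin-like protein ISG15. Isg15 was at 27.9, 12.6 and 24.2 CPM in the estrus libraries, at 10.1, 17.3, 5.19 and 9.59 in INT, 6.46, 7.08, 8.41 and 7.52 in SVX, 11.9, 13, 6.99 and 7.5 in SVX_VAS and 10.3, 14, 11.7 and 11.9 in VAS. Isg15, the modifier itself, was lower than every estrus library in each SVX library, whereas INT replicate 2, SVX_VAS replicate 2 and VAS replicate 2 lay above the lowest estrus library. For Isg15, logFC ± SE was -1.03 ± 0.33 in INT (FDR 0.017), -1.55 ± 0.33 in SVX (FDR 0.000911), -1.13 ± 0.33 in SVX_VAS (FDR 0.00905) and -0.85 ± 0.33 in VAS (FDR 0.0377). Without CONT replicate 1 the FDR of Isg15 was 0.0977 in INT, 0.0585 in SVX_VAS and 0.179 in VAS, and without CONT replicate 4 it was 0.0567 in INT and 0.107 in VAS. The Isg15 call in VAS was also lost without VAS replicate 1, 3 or 4 (FDR 0.0623 to 0.0761). In VAS without replicates 2 and 3 its logFC was -0.93 (FDR 0.0758). Its VAS call was lost too with limma-voom (FDR 0.0522), the replicate block (FDR 0.0725) and a fit of only the groups compared (FDR 0.0502). The last of these fits also lost the INT call of Isg15 (FDR 0.0709). Trim25 was at 378, 331 and 387 CPM in the estrus libraries, at 211, 215, 149.95 and 165 in INT, 143, 160.3, 149 and 161 in SVX, 168, 247, 153 and 159 in SVX_VAS and 174, 165, 128 and 170.02 in VAS. Trim25, a ubiquitin and ISG15 ligase that activates the sensor RIG-I, did not overlap between estrus and any mated group. Against estrus, Trim25 had a logFC of -0.98 ± 0.16 in INT (FDR 0.000173), -1.25 ± 0.16 in SVX (FDR 1.28e-05), -1.0 ± 0.16 in SVX_VAS (FDR 0.000109) and -1.20 ± 0.16 in VAS (FDR 2.34e-05). Usp18, the protease that removes ISG15 and dampens the type I receptor, was lower in SVX (logFC -0.84 ± 0.24, FDR 0.00757) and SVX_VAS (-0.59 ± 0.24, FDR 0.0492), and its logFC of -0.56 in INT and -0.47 in VAS did not pass. Without VAS replicates 2 and 3 in the fit the SVX_VAS call of Usp18 was lost (logFC -0.56, FDR 0.0578).

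The IFIT proteins bind viral RNA that lacks host cap marks. Ifit1 was at 91.3, 56.7 and 82.2 CPM in the estrus libraries, at 35.9, 51.9, 16 and 24.9 in INT, 18, 26.3, 26.7 and 25.4 in SVX, 39.3, 66.8, 18.7 and 23.7 in SVX_VAS and 28.7, 52.6, 37.3 and 33.7 in VAS. Only SVX_VAS replicate 2 reached into the range of estrus. The logFC of Ifit1 (± SE) against estrus was -1.25 ± 0.40 in INT (FDR 0.0167), -1.67 ± 0.40 in SVX (FDR 0.00217), -1.04 ± 0.40 in SVX_VAS (FDR 0.0364) and -1.01 ± 0.40 in VAS (FDR 0.0408). These calls were sensitive to single libraries. Without CONT replicate 1 the FDR of Ifit1 was 0.0655 in INT, 0.121 in SVX_VAS and 0.13 in VAS, and its call in SVX was kept. The SVX_VAS call of Ifit1 was also lost without CONT replicate 4 or SVX_VAS replicate 1, 3 or 4 (FDR 0.0605 to 0.101), and its VAS call without CONT replicate 4 or VAS replicate 1, 3 or 4 (FDR 0.0785 to 0.0934). In a fit of only the groups compared, Ifit1 did not pass in SVX_VAS either (FDR 0.0611). Ifit3 was lower in INT (logFC -1.31 ± 0.49, FDR 0.0353) and SVX (-1.59 ± 0.49, FDR 0.0107), and Ifit3b in SVX (-1.95 ± 0.64, FDR 0.0157), and also in INT without VAS replicates 2 and 3 in the fit (-1.50, FDR 0.0281). Their transcripts are 97.8% identical over 1700 aligned positions, so reads may have been split between them and their separate values are uncertain. Ifit2 was at 18.7, 21.7 and 22 CPM in the estrus libraries, at 22.7, 28.2, 22.5 and 23.2 in INT, 27, 23.6, 22.5 and 21.6 in SVX, 28.1, 27.3, 17.9 and 16.3 in SVX_VAS and 21.9, 38, 38.8 and 26.5 in VAS. Ifit2 is singled out here after its values were seen. In VAS it was higher with a logFC of 0.59 ± 0.21 (FDR 0.0257), and without VAS replicates 2 and 3 the logFC was 0.24 (FDR 0.342). This call of Ifit2 was also lost with limma-voom, either other filter, the replicate block and a fit of only the groups compared (logFC 0.53 to 0.60, FDR 0.0228 to 0.0823), by one cutoff or the other.

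The OAS genes encode the 2′-5′-oligoadenylate synthetases that switch on RNase L, and OAS-like relatives. Of the 8 roles, they had the lowest median logFC in each comparison. All 5 were lower in SVX and SVX_VAS, 4 in INT and 3 in VAS, with medians of -2.95, -2.12, -1.93 and -1.68. Oas2 was at 317, 233 and 317 CPM in the estrus libraries, at 101, 132, 40.6 and 30.5 in INT, 33, 38.1, 34.4 and 43.8 in SVX, 58.3, 108, 27.7 and 41.6 in SVX_VAS and 95.3, 95.1, 68.6 and 50.2 in VAS. Every mated library of Oas2 lay below every estrus library. For Oas2, logFC ± SE was -1.93 ± 0.46 in INT (FDR 0.00261), -2.95 ± 0.47 in SVX (FDR 7.3e-05), -2.30 ± 0.46 in SVX_VAS (FDR 0.000629) and -1.90 ± 0.46 in VAS (FDR 0.0023). Oas1a was at 99.9, 66.8 and 90.5 CPM in the estrus libraries, at 43.7, 48.1, 12.5 and 16.6 in INT, 16.4, 18.7, 19.2 and 17.8 in SVX, 23.3, 39.6, 15.7 and 18.9 in SVX_VAS and 35.9, 29.2, 23 and 19.1 in VAS. No mated library of Oas1a reached an estrus library. Against estrus, Oas1a had a logFC of -1.50 ± 0.40 in INT (FDR 0.0055), -2.25 ± 0.41 in SVX (FDR 0.000206), -1.81 ± 0.40 in SVX_VAS (FDR 0.00129) and -1.68 ± 0.40 in VAS (FDR 0.00213). Its neighbour Oas1g, with a transcript 97.5% identical over 1860 aligned positions, may share reads with it. Oasl2 was at 276, 204 and 262 CPM in the estrus libraries, at 134, 161, 57 and 92.3 in INT, 68.5, 86.4, 88.9 and 82.1 in SVX, 117, 158, 75.2 and 82.2 in SVX_VAS and 112, 122, 94.9 and 113 in VAS. Oasl2 likewise did not overlap between estrus and any mated group. The logFC of Oasl2 (± SE) against estrus was -1.16 ± 0.28 in INT (FDR 0.00324), -1.60 ± 0.29 in SVX (FDR 0.000183), -1.19 ± 0.28 in SVX_VAS (FDR 0.00221) and -1.17 ± 0.28 in VAS (FDR 0.00246).

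Oas3 and Oasl1, singled out after their values were seen, were low in some mated libraries and much higher in others. Oas3 was at 107, 66.9 and 93.8 CPM in the estrus libraries, at 40.2, 38.3, 4.85 and 4.13 in INT, 6, 2.75, 2.41 and 4.73 in SVX, 4.01, 40.9, 2.44 and 6.11 in SVX_VAS and 27.3, 55.5, 23.7 and 4.45 in VAS. Estrus did not overlap with any mated group, but INT replicates 1 and 2, SVX_VAS replicate 2 and VAS replicates 1 to 3 stood above the other mated libraries. For Oas3, logFC ± SE was -2.03 ± 0.95 in INT (FDR 0.0898), -4.49 ± 1.05 in SVX (FDR 0.00174), -2.73 ± 0.97 in SVX_VAS (FDR 0.0254) and -1.68 ± 0.94 in VAS (FDR 0.138). As a fold, the fitted logFC of Oas3 in SVX is 22.4-fold lower. Oasl1 was at 84.4, 63.1 and 60.4 CPM in the estrus libraries, at 28.1, 28.4, 3.82 and 6.3 in INT, 6, 5.66, 5.41 and 4.37 in SVX, 6.86, 45.6, 3.63 and 7.65 in SVX_VAS and 22.8, 40.1, 16.4 and 5.51 in VAS. The same 6 libraries were the high ones for Oasl1. Against estrus, Oasl1 had a logFC of -2.06 ± 0.81 in INT (FDR 0.0447), -3.69 ± 0.86 in SVX (FDR 0.0016), -2.12 ± 0.81 in SVX_VAS (FDR 0.0356) and -1.71 ± 0.80 in VAS (FDR 0.0784). Oasl1 overlaps Gm13822 on the opposite strand, and the strand setting of the counting is not given in the sources used here.

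**Figure D2:**
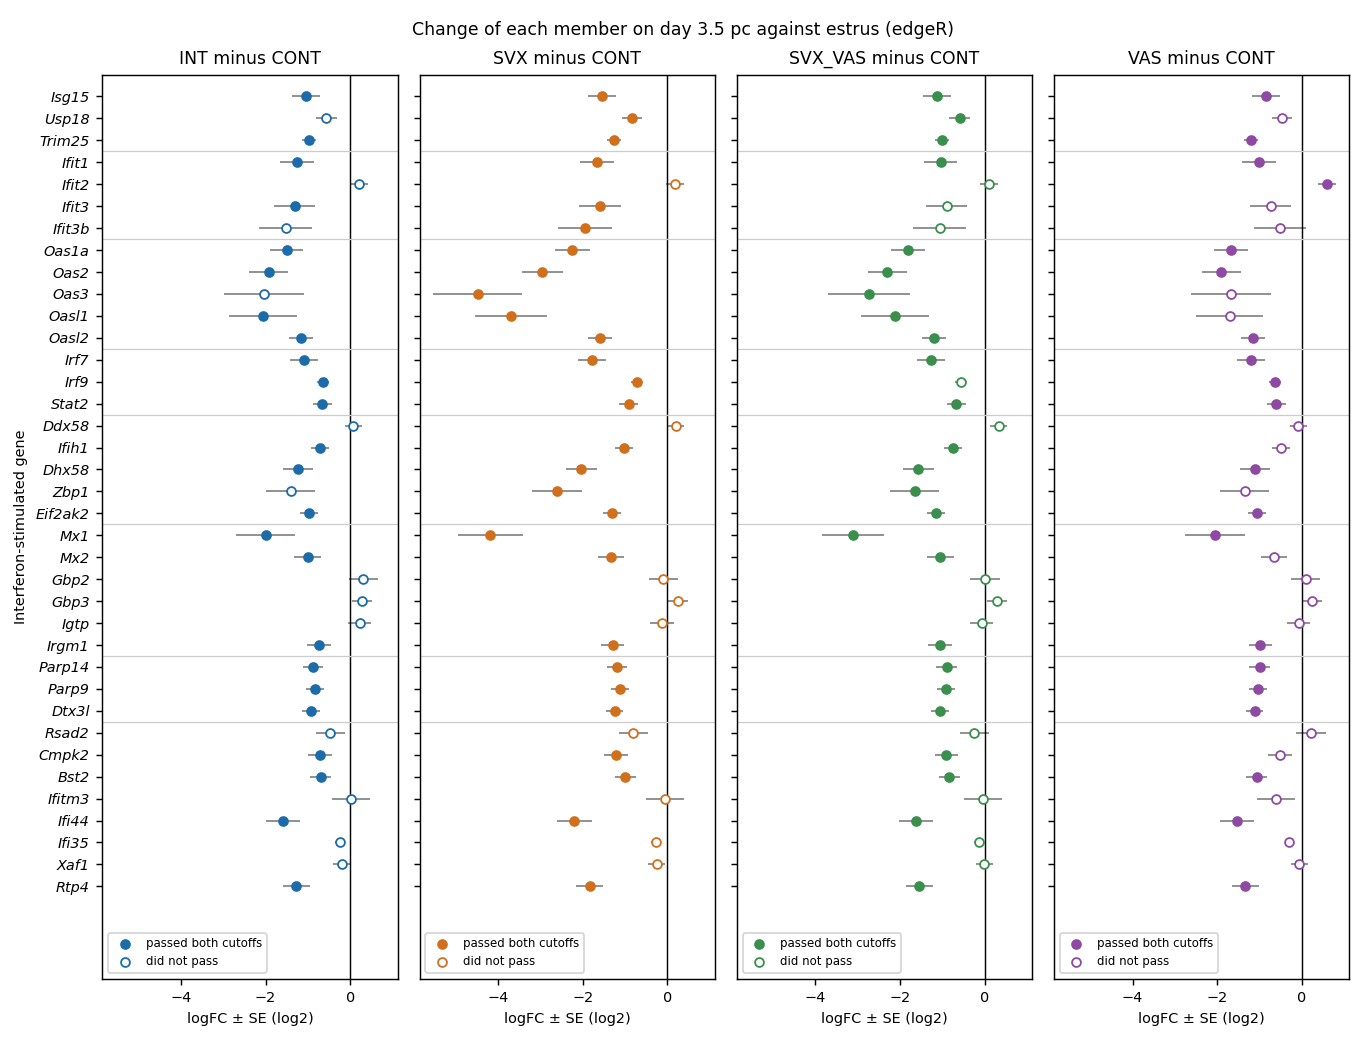
Points show the logFC of each member (rows) in the 4 comparisons with estrus (panels), with bars of 1 standard error, filled where both cutoffs were passed. In SVX 28 points are filled, and Oas3 and Mx1 lie farthest to the left at -4.49 and -4.18.

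Irf7, Irf9 and Stat2 act in the transcription of the other members. Irf7 was at 108, 89.7 and 105 CPM in the estrus libraries, at 65.1, 63.8, 23.6 and 36.1 in INT, 23.5, 32.6, 32.1 and 29.2 in SVX, 42.3, 69.4, 26.2 and 30.5 in SVX_VAS and 39, 55.4, 42.5 and 37.4 in VAS. IRF7, the factor that amplifies type I interferon production, was lower in every mated library than in any at estrus. The logFC of Irf7 (± SE) against estrus was -1.10 ± 0.33 in INT (FDR 0.0113), -1.78 ± 0.33 in SVX (FDR 0.000263), -1.26 ± 0.33 in SVX_VAS (FDR 0.00412) and -1.21 ± 0.33 in VAS (FDR 0.00501). Irf9 was at 142, 118 and 137 CPM in the estrus libraries, at 95.6, 95.9, 63 and 83.1 in INT, 69.6, 90.05, 83.1 and 79.5 in SVX, 98.9, 101, 76 and 82.2 in SVX_VAS and 85.6, 84.2, 77.2 and 92.4 in VAS. Irf9, the DNA-binding part of ISGF3, changed less but with little spread. For Irf9, logFC ± SE was -0.65 ± 0.14 in INT (FDR 0.00117), -0.71 ± 0.14 in SVX (FDR 0.000373), -0.56 ± 0.14 in SVX_VAS (FDR 0.00278) and -0.64 ± 0.14 in VAS (FDR 0.00102). Its logFC in SVX_VAS fell short of the 1.5-fold cutoff, as it did in INT without INT replicate 3 (-0.56) and in VAS without CONT replicate 1 (-0.58), VAS replicate 3 (-0.57) or VAS replicates 2 and 3 (-0.54). With the replicate block Irf9 also fell short in VAS (-0.58). In SVX_VAS it passed without a filter on low counts (-0.59) and with the filterByExpr filter (-0.60). Stat2 was lower in all 4 groups, with a logFC between -0.91 (SVX) and -0.60 (VAS). With the replicate block the logFC of Stat2 in VAS was -0.56 (FDR 0.0397), short of the 1.5-fold cutoff. Irf7 overlaps Phrf1 on the opposite strand and Irf9 overlaps Rnf31 on the same strand.

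Among the sensors of nucleic acid, Zbp1, which recognises Z-form nucleic acid and starts necroptosis, showed the widest range on a log scale. Zbp1 was at 71.2, 59.7 and 76 CPM in the estrus libraries, at 47.7, 38.4, 7.99 and 10.2 in INT, 8.33, 11.9, 12.1 and 12.7 in SVX, 20.8, 45.3, 9.49 and 12.1 in SVX_VAS and 21.1, 43.3, 27.7 and 15.8 in VAS. INT replicates 1 and 2, SVX_VAS replicate 2 and VAS replicate 2 were high, and none reached the lowest estrus library. Against estrus, Zbp1 had a logFC of -1.40 ± 0.58 in INT (FDR 0.0547), -2.61 ± 0.60 in SVX (FDR 0.00137), -1.65 ± 0.58 in SVX_VAS (FDR 0.0239) and -1.35 ± 0.57 in VAS (FDR 0.055). Its FDR in SVX_VAS was 0.0548 without CONT replicate 1 and 0.0518 to 0.068 without CONT replicate 4 or SVX_VAS replicate 1, 3 or 4. Zbp1 passed in INT without INT replicate 1 (FDR 0.0181) or 2 (FDR 0.0445), and in VAS without VAS replicate 2 (FDR 0.0349). It also passed in INT without VAS replicates 2 and 3 in the fit (FDR 0.0477) and with the replicate block (FDR 0.0288), and in both INT and VAS with DESeq2 (FDR 0.0316 and 0.0315) and limma-voom (FDR 0.00777 and 0.0172). Its logFC in VAS without replicates 2 and 3 was -1.87 (FDR 0.0442). In VAS it passed too with the filterByExpr filter (FDR 0.0487) and in a fit of only the groups compared (FDR 0.0188). Eif2ak2 was at 265, 206 and 241 CPM in the estrus libraries, at 145, 159, 80.1 and 101 in INT, 97.6, 98.2, 102 and 87.6 in SVX, 117, 129.7, 79 and 100.1 in SVX_VAS and 146, 111, 98.4 and 102 in VAS. Eif2ak2 encodes PKR, the kinase that halts translation when it binds double-stranded RNA, and it did not overlap between estrus and any mated group. The logFC of Eif2ak2 (± SE) against estrus was -0.97 ± 0.21 in INT (FDR 0.00135), -1.30 ± 0.21 in SVX (FDR 8.05e-05), -1.16 ± 0.21 in SVX_VAS (FDR 0.000272) and -1.06 ± 0.21 in VAS (FDR 0.000553). Dhx58 (LGP2) was lower in all 4 comparisons, and Ifih1 (MDA5) in INT, SVX and SVX_VAS, and also in VAS without replicates 2 and 3, with a logFC of -0.68 (FDR 0.0403). Ddx58, the RIG-I gene, was the exception: its logFC lay between -0.09 (VAS) and 0.33 (SVX_VAS) and did not pass in any comparison.

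The GTPases did not move together. Mx1, Mx2 and Irgm1 were lower, Mx1 and Irgm1 in all 4 comparisons and Mx2 in INT, SVX and SVX_VAS, and Gbp2, Gbp3 and Igtp passed in none. In VAS without replicates 2 and 3, Irgm1 did not pass, with a logFC of -0.82 (FDR 0.0648), and Mx2 was lower, with a logFC of -1.09 (FDR 0.0164). The INT call of Irgm1 was lost without a filter on low counts (FDR 0.0515) and in a fit of only the groups compared (FDR 0.123). Mx1 was at 125, 90.9 and 111 CPM in the estrus libraries, at 46.7, 52.7, 4.39 and 5.18 in INT, 6.15, 6.29, 6.14 and 5.37 in SVX, 9.32, 21.9, 5.8 and 13.4 in SVX_VAS and 36.5, 33.6, 26.5 and 7.98 in VAS. INT replicates 3 and 4, every SVX library, SVX_VAS replicates 1 and 3 and VAS replicate 4 were the lowest for Mx1, and no mated library reached an estrus library. For Mx1, logFC ± SE was -2.0 ± 0.70 in INT (FDR 0.0272), -4.18 ± 0.77 in SVX (FDR 0.000232), -3.11 ± 0.73 in SVX_VAS (FDR 0.00195) and -2.06 ± 0.70 in VAS (FDR 0.0201). As a fold, the fitted value for Mx1 in SVX is 18.2-fold lower. Without CONT replicate 1 its FDR was 0.0714 in INT and 0.0532 in VAS. The FDR of Mx1 in INT was 0.0555 without CONT replicate 4, 0.0614 without INT replicate 4 and 0.0808 in a fit of only the groups compared. Its logFC in VAS without replicates 2 and 3 was -2.26 (FDR 0.0573). The Mx1 product blocks influenza virus in mice that carry an intact gene, whereas C57BL/6 mice carry a defective allele, and the annotation lists Mx2 as a polymorphic pseudogene, so the values are those of transcripts only.

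Gbp2 was at 42.5, 53.9 and 52.9 CPM in the estrus libraries, at 104, 53.6, 45.1 and 44 in INT, 36.4, 48.4, 47.3 and 53.8 in SVX, 52.4, 75.8, 39 and 33 in SVX_VAS and 26.8, 67.1, 51.9 and 66.2 in VAS. Gbp2, a guanylate-binding protein that attacks pathogen vacuoles, overlapped between estrus and every mated group, with INT replicate 1 standing highest. Against estrus, Gbp2 had a logFC of 0.31 ± 0.35 in INT (FDR 0.499), -0.10 ± 0.35 in SVX (FDR 0.836), 0.01 ± 0.35 in SVX_VAS (FDR 0.988) and 0.09 ± 0.35 in VAS (FDR 0.834). Igtp was at 41.6, 33.7 and 40.6 CPM in the estrus libraries, at 70.6, 48, 25.4 and 36.9 in INT, 25.5, 42, 36.6 and 37.3 in SVX, 46.4, 36.8, 33.3 and 30.7 in SVX_VAS and 25.9, 41.1, 35.2 and 44.4 in VAS. Igtp (IRGM3), an immunity-related GTPase, also overlapped with estrus in every group. The logFC of Igtp (± SE) against estrus was 0.23 ± 0.27 in INT (FDR 0.535), -0.13 ± 0.27 in SVX (FDR 0.726), -0.07 ± 0.27 in SVX_VAS (FDR 0.859) and -0.08 ± 0.27 in VAS (FDR 0.821). Gbp3 had a logFC between 0.23 and 0.28 in the 4 comparisons. Gbp2, Gbp3 and Igtp are known for their response to interferon gamma. Irgm1, of the same role, and Irf1, an early target of interferon gamma, were lower in all 4 comparisons, whereas Gbp5 was higher in all 4. A part of interferon gamma was not tested. The exons of Igtp overlap those of Irgm2 on the same strand, so its counts are uncertain.

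**Figure D3:**
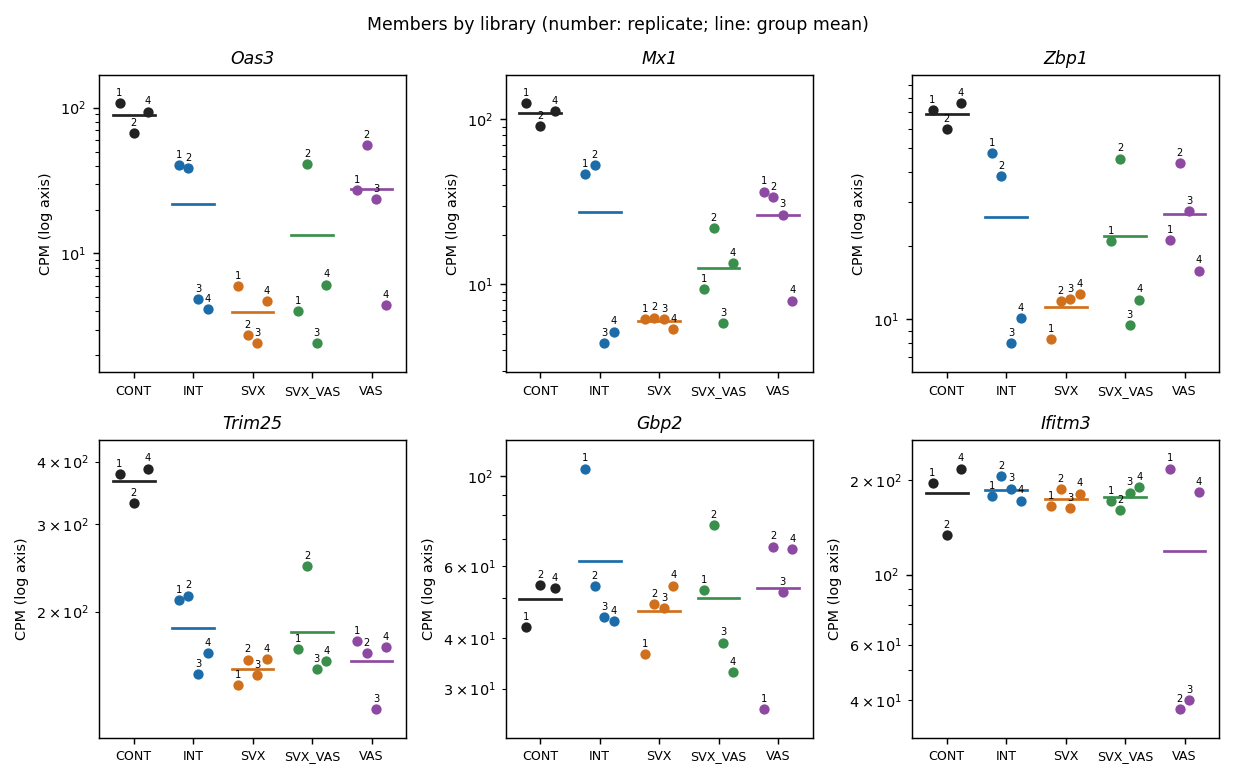
CPM of 6 members on log axes by group, with each point a library, its number the replicate and each line the group mean. Oas3, Mx1 and Zbp1 are spread widely among the mated libraries, Trim25 is lower in all of them, Gbp2 overlaps with estrus, and Ifitm3 is low only in VAS replicates 2 and 3.

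The PARP9 and DTX3L proteins form an ADP-ribosylation and ubiquitin complex, and PARP14 is a related enzyme. All 3 genes were lower in each of the 4 comparisons. Dtx3l was at 262, 253 and 272 CPM in the estrus libraries, at 178, 169, 88.4 and 117 in INT, 95.4, 111, 118 and 117 in SVX, 129, 169.9, 102 and 104 in SVX_VAS and 125, 132, 104 and 122 in VAS. Estrus and mated libraries were fully separated for Dtx3l. For Dtx3l, logFC ± SE was -0.93 ± 0.21 in INT (FDR 0.00162), -1.25 ± 0.21 in SVX (FDR 9.71e-05), -1.05 ± 0.21 in SVX_VAS (FDR 0.000492) and -1.12 ± 0.21 in VAS (FDR 0.000289). Parp9 was at 208, 182 and 197 CPM in the estrus libraries, at 147, 129.9, 68.4 and 96.3 in INT, 80.1, 96.7, 98.5 and 85.2 in SVX, 109.9, 140.4, 82.2 and 84.5 in SVX_VAS and 98.8, 101, 79.7 and 100.2 in VAS. Parp9 was likewise separated. Against estrus, Parp9 had a logFC of -0.82 ± 0.22 in INT (FDR 0.0049), -1.12 ± 0.22 in SVX (FDR 0.000358), -0.91 ± 0.22 in SVX_VAS (FDR 0.00216) and -1.04 ± 0.22 in VAS (FDR 0.000711). Parp9 and Dtx3l are transcribed from opposite strands with overlapping exons, and without the strand the reads of the shared stretch cannot be told apart. Parp14 was lower with a logFC between -1.19 (SVX) and -0.88 (INT).

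Of the 8 membrane and other effectors, Ifi44, Rtp4 and Bst2 were lower in all 4 comparisons, and Ifitm3, Ifi35, Xaf1 and Rsad2 passed in none. Rtp4 was at 89.5, 62.6 and 85.1 CPM in the estrus libraries, at 42.9, 49.9, 16.4 and 21.3 in INT, 19.2, 22.3, 25.5 and 21.3 in SVX, 32.7, 35.8, 18.5 and 21.6 in SVX_VAS and 39.5, 27.6, 28.2 and 29.6 in VAS. Rtp4, a transporter protein that restrains flaviviruses, did not overlap between estrus and any mated group. The logFC of Rtp4 (± SE) against estrus was -1.28 ± 0.32 in INT (FDR 0.00343), -1.84 ± 0.32 in SVX (FDR 0.000148), -1.54 ± 0.32 in SVX_VAS (FDR 0.000735) and -1.34 ± 0.32 in VAS (FDR 0.00198). Bst2 was at 105, 81.6 and 111 CPM in the estrus libraries, at 77.4, 73.7, 42.2 and 52.6 in INT, 54.6, 52.2, 48.3 and 43.6 in SVX, 63.2, 59.9, 43.1 and 55.5 in SVX_VAS and 66.3, 32.1, 33.9 and 57.7 in VAS. Bst2 encodes tetherin, which holds budding virus at the membrane, and VAS replicates 2 and 3 were its lowest libraries. For Bst2, logFC ± SE was -0.69 ± 0.25 in INT (FDR 0.03), -1.0 ± 0.25 in SVX (FDR 0.00265), -0.84 ± 0.25 in SVX_VAS (FDR 0.00923) and -1.06 ± 0.25 in VAS (FDR 0.00178). Without these libraries its logFC in VAS was -0.65 (FDR 0.0298). The INT call of Bst2 was lost without CONT replicate 1 (FDR 0.088), CONT replicate 4 (FDR 0.0994), INT replicate 3 (FDR 0.0649) or INT replicate 4 (FDR 0.0793). Ifitm3 was at 195, 134 and 217 CPM in the estrus libraries, at 178, 205, 187 and 172 in INT, 165, 187, 162 and 181 in SVX, 171, 160.4, 182 and 190.0 in SVX_VAS and 217, 37.6, 39.97 and 183 in VAS. Ifitm3, which blocks viral fusion in endosomes, was the most abundant member per length at estrus, at 268 ± 63.7 RPKM (SD, n = 3) against 110 ± 17.1 RPKM for Bst2, the next. VAS replicates 2 and 3 lay far below all other libraries, and each other mated library lay above the lowest estrus library. Against estrus, Ifitm3 had a logFC of 0.03 ± 0.45 in INT (FDR 0.969), -0.07 ± 0.45 in SVX (FDR 0.918), -0.05 ± 0.45 in SVX_VAS (FDR 0.941) and -0.61 ± 0.44 in VAS (FDR 0.251). Its logFC in VAS without them was 0.16 (FDR 0.4), and without VAS replicate 1 it was -1.07 (FDR 0.0381). Cmpk2 was lower in INT, SVX and SVX_VAS, and also in VAS without replicates 2 and 3, with a logFC of -0.88 (FDR 0.0319). Its INT call was lost without a filter on low counts (FDR 0.0516) and in a fit of only the groups compared (FDR 0.0806). Rsad2 (viperin) ranged from a logFC of -0.81 in SVX (FDR 0.0529) to 0.21 in VAS (FDR 0.605), and passed in SVX without VAS replicates 2 and 3 in the fit (-0.79, FDR 0.0191).

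To ask whether the mating partner made a difference, the 3 groups with modified males were compared with INT. No member passed the test in any of them, and no gene did (0% of all genes in each comparison). At an unadjusted p below 0.05 (edgeR), 7 of 37 members differed between SVX and INT, against 4.35% of all genes, 0 between SVX_VAS and INT, against 1.97%, and 1 between VAS and INT, against 10.6%. The 7 were Oas2, Oas3, Irf7, Dhx58, Zbp1, Mx1 and Irgm1, all lower in SVX. The largest differences were a logFC of -2.46 ± 0.96 for Oas3 and -2.18 ± 0.70 for Mx1 (FDR 1.0 for both), and 36 of 37 members had a logFC below 0, with a median of -0.34. For both genes only INT replicates 1 and 2 stood above SVX. Oas3 was at 40.2, 38.3, 4.85 and 4.13 CPM in INT and 2.41 to 6.0 in SVX. Mx1 was at 46.7, 52.7, 4.39 and 5.18 CPM in INT and 5.37 to 6.29 in SVX. In SVX_VAS minus INT 28 members were below 0 (median -0.08), and in VAS minus INT 18 were (median 0.008). Without VAS replicates 2 and 3, 25 were below 0 in VAS minus INT (median -0.06). The medians over all genes were -0.009, -0.009 and 0.0003 in SVX, SVX_VAS and VAS minus INT. DESeq2 called 3, 2 and 0 genes in these 3 comparisons and limma-voom 0, 0 and 1661, without any member among them. With VAS replicates 2 and 3 left out of the fit, VAS minus INT held 0 called genes (0%). At an unadjusted p below 0.05 (edgeR), 5 members then differed between SVX and INT, 0 between SVX_VAS and INT and 0 between VAS and INT.

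Isg15 had a logFC against INT of -0.51 ± 0.31 in SVX (FDR 1.0), -0.09 ± 0.31 in SVX_VAS (FDR 1.0) and 0.18 ± 0.31 in VAS (FDR 0.752). Mx1 had a logFC against INT of -2.18 ± 0.70 in SVX (FDR 1.0), -1.11 ± 0.67 in SVX_VAS (FDR 1.0) and -0.06 ± 0.65 in VAS (FDR 0.967). Ifit1 had a logFC against INT of -0.42 ± 0.38 in SVX (FDR 1.0), 0.21 ± 0.37 in SVX_VAS (FDR 1.0) and 0.24 ± 0.37 in VAS (FDR 0.727). The missed threshold does not show that the groups were alike. Irf7 had a logFC against INT of -0.68 ± 0.31 in SVX (FDR 1.0), -0.16 ± 0.31 in SVX_VAS (FDR 1.0) and -0.11 ± 0.31 in VAS (FDR 0.848). Oas2 had a logFC against INT of -1.02 ± 0.43 in SVX (FDR 1.0), -0.37 ± 0.43 in SVX_VAS (FDR 1.0) and 0.03 ± 0.43 in VAS (FDR 0.977). Zbp1 had a logFC against INT of -1.21 ± 0.55 in SVX (FDR 1.0), -0.25 ± 0.54 in SVX_VAS (FDR 1.0) and 0.05 ± 0.54 in VAS (FDR 0.962). Bst2 had a logFC against INT of -0.31 ± 0.23 in SVX (FDR 1.0), -0.15 ± 0.23 in SVX_VAS (FDR 1.0) and -0.37 ± 0.23 in VAS (FDR 0.476). The genes that did not pass against estrus did not pass here either. Gbp2 had a logFC against INT of -0.41 ± 0.32 in SVX (FDR 1.0), -0.30 ± 0.32 in SVX_VAS (FDR 1.0) and -0.22 ± 0.32 in VAS (FDR 0.712). Igtp had a logFC against INT of -0.35 ± 0.25 in SVX (FDR 1.0), -0.30 ± 0.25 in SVX_VAS (FDR 1.0) and -0.30 ± 0.25 in VAS (FDR 0.543). Ifitm3 had a logFC against INT of -0.09 ± 0.41 in SVX (FDR 1.0), -0.08 ± 0.41 in SVX_VAS (FDR 1.0) and -0.64 ± 0.42 in VAS (FDR 0.486).

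In an F test for any difference among the 4 mated groups, 0 of 37 members and 0% of all genes passed. At an unadjusted p below 0.05 (edgeR), 2 of 37 members passed this lower bar, Mx1 and Rsad2, against 7.04% of all genes. The lowest FDR among the members was 0.635. DESeq2 called 13 genes and limma-voom 1374, and 0 members in both. The F test without VAS replicates 2 and 3 called no gene (0%).

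The spread within the mated groups was wide. The median of log2(CPM / estrus mean) over the 37 members was -0.56 in INT replicates 1 and 2 and -1.57 and -1.17 in INT replicates 3 and 4. It lay between -1.41 and -1.19 in the 4 SVX libraries. In SVX_VAS it was -0.86, -0.54, -1.40 and -1.29 in replicates 1 to 4, and in VAS -1.0, -0.65, -1.04 and -0.97. INT replicates 1 and 2, SVX_VAS replicate 2 and VAS replicate 2 were closest to estrus, and no mated library had a median within the estrus range of -0.21 to 0.10. In each mated library between 23 and 35 of the 37 members lay below the lowest estrus library, and so did 39.6% to 50.5% of all genes tested.

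Other genes moved with this spread. Ifne, the epithelial interferon, was at 14.4, 11.3 and 12.4 CPM at estrus, 6.88, 4.16, 0.513 and 1.12 in INT, 1.25, 0.472, 0.219 and 0.716 in SVX, 0.773, 9.32, 0.461 and 1.32 in SVX_VAS and 3.27, 8.16, 1.74 and 0.777 in VAS. Its high mated libraries, INT replicates 1 and 2, SVX_VAS replicate 2 and VAS replicates 1 and 2, were among the 6 high ones for Oas3 and Oasl1, and all of them but VAS replicate 1 were those named as high for Zbp1. Epcam, an epithelial adhesion molecule named with Ltf after their values were seen, was at 359 and 269.6 CPM in INT replicates 1 and 2, 294 in SVX_VAS replicate 2 and 320.4 in VAS replicate 1, against 64.8 to 162 in the other 12 mated libraries and 466 to 679 at estrus. VAS replicates 2 and 3, high for Oas3, were low for Epcam at 77.3 and 64.8 CPM. The estrogen-response list (Ltf, C3, Lcn2, Clca1, Muc4, Sprr2f and Muc1) summed to 13377 to 16908 CPM at estrus, 208 to 11061 in INT, 202 to 647 in SVX, 242 to 12838 in SVX_VAS and 200 to 3228 in VAS. For Ltf, lactoferrin, INT replicate 1 and SVX_VAS replicate 2 were at 2157 and 2301 CPM, within the estrus range of 1875 to 2848, and the SVX libraries were at 15.5 to 273 CPM. The part of the estrogen response and of the epithelial share in the members' values was not tested. In these bulk samples, fewer cells of a type and less RNA per cell cannot be told apart.

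Of the epithelial markers, 4 of 6 were lower in INT, 6 in SVX, 5 in SVX_VAS and 5 in VAS, and 2 of 6 in VAS without replicates 2 and 3. Over all genes tested, 12.7%, 18.4%, 16.4% and 17.2% were lower in INT, SVX, SVX_VAS and VAS. The share in VAS without replicates 2 and 3 was 13.2%. In the same order of groups, 20.9%, 23.1%, 22.1% and 23.2% of all genes were higher. The estrogen-response list was lower for 1 of 7 in INT, 7 in SVX, 1 in SVX_VAS and 2 in VAS, and for 0 in VAS without replicates 2 and 3. All 7 had a logFC below 0 in each of these, with medians of -2.01, -5.86, -2.23 and -3.70, and -3.24 in VAS without these replicates. Glandular epithelium markers, secreted products and a factor of the uterine glands, were higher for 3 of the 4 tested in INT, 4 in SVX, 2 in SVX_VAS and 3 in VAS (2 without replicates 2 and 3), with medians of 4.61, 5.77, 2.40 and 3.54. They summed to 4.16 to 14.3 CPM at estrus and 37.5 to 413.9 CPM in the mated libraries. Foxa2, 1 of the 4, was at 2.97, 5.06 and 2.73 CPM at estrus. None of the 4 reached 3 CPM in all 3 estrus libraries. These 4 genes were thus tested through mated libraries where they are high, and their counts are partly set by the filter. All 5 endothelium markers were higher in each comparison, and their sum was 150.9 to 223 CPM at estrus and 486 to 944 CPM in the mated libraries. Of 6 stroma markers, 3 were higher in INT, SVX and SVX_VAS and 2 in VAS (3 without replicates 2 and 3). Of 2 B and plasma cell markers and 3 neutrophil markers tested, 1 each was higher and 1 lower in every comparison. Csf3r, 1 of the 3 neutrophil markers, was at 1.31, 2.87 and 2.88 CPM at estrus and reached the 3 CPM of the filter in mated libraries only. It was thus tested through groups where it is high, and the count of higher neutrophil markers is partly set by the filter. Of 6 proliferation genes, 0, 1, 3 and 1 were lower in INT, SVX, SVX_VAS and VAS (0 in VAS without replicates 2 and 3). Of 5 smooth muscle markers, 1 was higher in INT, SVX and SVX_VAS and 0 in VAS (1 without replicates 2 and 3). The smooth muscle counts, and the proliferation counts outside SVX_VAS, lie near the shares of all genes. Of the leukocyte markers, Ptprc, Cd52 and Coro1a were higher and Laptm5 lower in each mated group, and the 4 markers summed to 119 to 184 CPM at estrus and 196 to 295 CPM in the mated libraries. Of the 8 T and NK cell markers, 6 were tested and all 6 were higher in each comparison. Cd3e reached the 3 CPM of the filter only in INT replicate 4 (3.57) and VAS replicates 2 and 3 (4.67 and 3.81). It was thus tested through mated libraries where it is high, and the count of 6 is partly set by the filter. Dendritic cell markers were higher for 5 of 6 in INT and SVX_VAS and 6 in SVX and VAS (5 in VAS without replicates 2 and 3), and macrophage markers for 6 of 8 in INT, SVX_VAS and VAS and 7 in SVX, with Cd68 lower in each. Plasmacytoid dendritic cells are known for interferon production. Of their 5 markers only Ccr9 was tested, with 16 to 119 counts per library, and it passed in no comparison. Siglech, their defining marker, had 1 to 4 counts per library at estrus and 3 to 45 in the mated libraries. The 5 markers summed to 4.51 to 11.3 CPM over all libraries. Cdx2, Pou5f1 and Nanog, the defining blastocyst markers, were at or near 0 (Cdx2 at 0 to 1 counts, Pou5f1 at 0 to 1 counts, Nanog at 0 to 2 counts per library). Their part in the members' values was not tested.

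**Figure D4:**
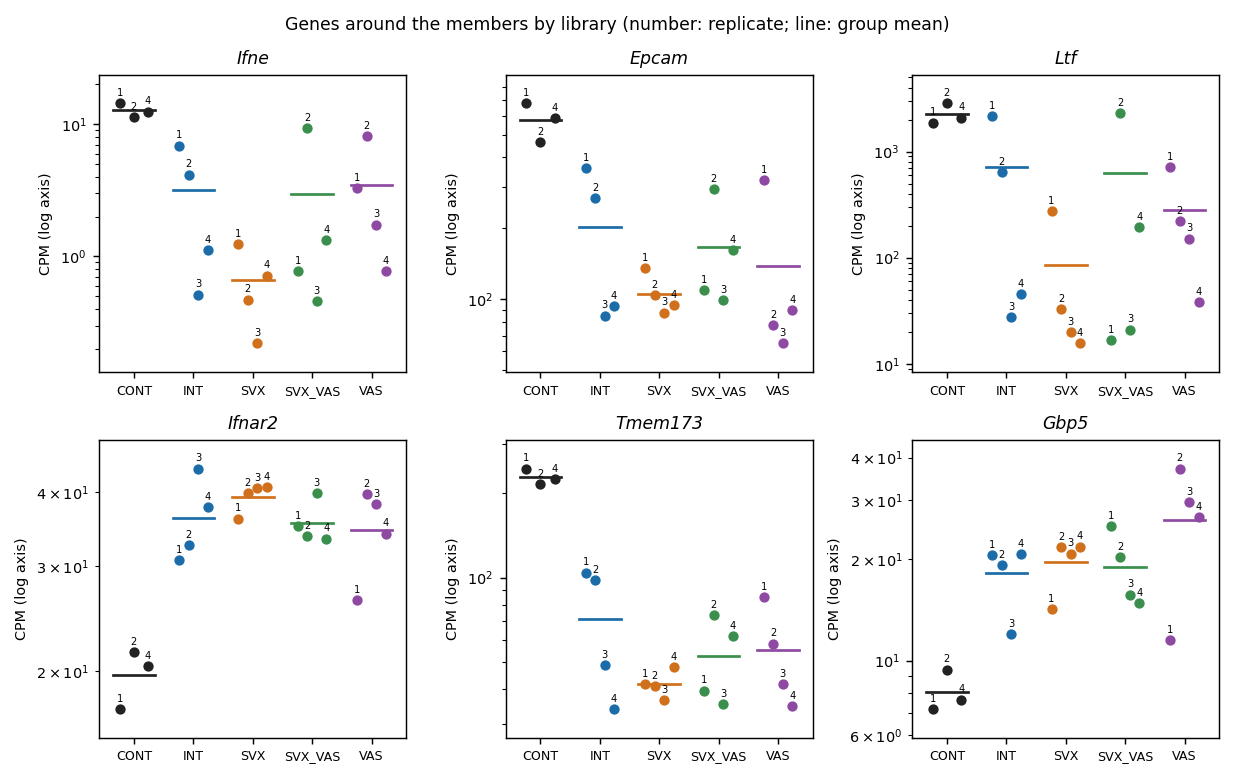
CPM of 6 genes around the members on log axes by group, with each point a library, its number the replicate and each line the group mean. Ifne, Epcam and Ltf have their highest means at estrus and are spread widely within INT, SVX_VAS and VAS, Tmem173 is lower in all mated libraries, and Ifnar2 and Gbp5 are higher in all of them.

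Most of the ligands upstream were at or near 0 counts. Of the 19 interferon genes counted, 7 had no count in any library, Ifnb1 among them, and 16 never had more than 10 counts. For Ifnb1 a count of 0 allows at most 0.108 to 0.236 CPM per library. Ifne was lower in SVX with a logFC of -4.25 ± 1.09 (FDR 0.00321), and its logFC of -2.01 ± 0.97 in INT (FDR 0.0998), -2.09 ± 0.97 in SVX_VAS (FDR 0.0804) and -1.86 ± 0.96 in VAS (FDR 0.110) did not pass. In VAS without replicates 2 and 3 it was -2.59 ± 1.16 (FDR 0.0752), which did not pass either. Ifnk and Ifng are named after their values were seen. Ifnk was at 7.72 to 8.34 CPM at estrus and 3.51 to 7.65 CPM in the mated libraries other than VAS replicates 2 and 3, which are listed at 0. It passed in no comparison with all libraries. Without these 2 replicates in the fit it was lower than at estrus in 3 groups, with a logFC of -0.75 ± 0.16 (FDR 0.00139) in INT, -0.80 ± 0.16 (FDR 0.000627) in SVX and -0.74 ± 0.20 (FDR 0.00731) in VAS. Ifng had 1 to 16 counts per library and was not tested.

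Of the 6 receptor genes, Ifnar2 was higher and Ifngr1, Ifngr2 and Il10rb lower in every comparison. Ifnar2, the signaling chain of the type I receptor, had a logFC between 0.81 (VAS, and 0.64 without replicates 2 and 3) and 0.99 (SVX), and Ifnar1, its partner, between 0.08 and 0.21, without passing both cutoffs. For the interferon gamma receptor the logFC lay between -0.97 and -0.70 for Ifngr1 and between -1.65 and -1.06 for Ifngr2. Il10rb, shared by the type III receptor, had a logFC between -1.07 and -0.78, and Ifnlr1, the specific chain, between -0.42 and -0.31 without passing both cutoffs.

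Of 10 kinase, STAT and IRF genes, 2 were higher and 1 lower in INT, 2 and 2 in SVX, 2 and 1 in SVX_VAS, and 1 and 3 in VAS. These counts lie near the background, in which 20.9% of all genes were higher and 12.7% lower in INT, 23.1% and 18.4% in SVX, 22.1% and 16.4% in SVX_VAS, and 23.2% and 17.2% in VAS. Jak1 was higher in INT, SVX and SVX_VAS with a logFC between 0.80 and 0.95. In VAS its logFC was 0.29 (FDR 0.230), and without replicates 2 and 3 it was 0.65 ± 0.16 (FDR 0.0043). Irf8, a factor of myeloid cells, was higher in all 4 comparisons (0.98 to 1.24), and Irf1, an early target of interferon gamma, was lower in all 4 (-1.02 to -0.74). Tyk2 and Irf3 had a logFC between -0.34 and -0.08, without passing both cutoffs. Jak2 was lower in SVX and VAS and Stat3 in VAS, but without VAS replicates 2 and 3 in the fit these 3 calls fell short of the 1.5-fold cutoff (Jak2 at -0.58 and -0.57, Stat3 at -0.54).

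Of 11 tested genes that lead to interferon production, Tmem173 (STING), Mavs, Ticam1 and Tlr3 were lower in all 4 comparisons. Of all genes, 12.7% were lower and 20.9% higher in INT, and 18.4% and 23.1% in SVX. In SVX_VAS the shares were 16.4% and 22.1%, and in VAS 17.2% and 23.2%. Tmem173 was at 244, 215 and 225 CPM at estrus and at 34.1 to 104 CPM in the mated libraries, with a logFC of -1.68 ± 0.36 in INT (FDR 0.00120) and -2.45 ± 0.37 in SVX (FDR 4.05e-05). Mavs, the adaptor of RIG-I and MDA5, had a logFC between -0.74 and -0.61. Tlr7 was higher in all 4 comparisons, Cgas in INT, SVX and VAS, and Myd88 in INT, SVX and SVX_VAS and Tlr9 in VAS. Without VAS replicates 2 and 3 the Tlr9 call was lost (logFC 0.46, FDR 0.242) and Cgas passed also in SVX_VAS (0.60, FDR 0.0205). Of the 6 negative regulators, Socs1 was higher in all 4 comparisons (0.76 to 0.93) and Socs3 in SVX, and also in SVX_VAS without VAS replicates 2 and 3 (0.61, FDR 0.00485). In INT, SVX, SVX_VAS and VAS, 3, 3, 2 and 3 of the 11 and 1, 2, 1 and 1 of the 6 were higher. These counts of higher genes lie near the shares of all genes that were higher.

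A list of 40 other interferon-stimulated genes, all tested, held 12 lower and 4 higher in INT, 18 and 3 in SVX, 16 and 4 in SVX_VAS, and 12 and 4 in VAS, with medians of -0.32, -0.58, -0.47 and -0.36. Over all genes, 12.7% were lower and 20.9% higher in INT, 18.4% and 23.1% in SVX, 16.4% and 22.1% in SVX_VAS, and 17.2% and 23.2% in VAS. The VAS counts without replicates 2 and 3 were 12 and 3. Samd9l, Phf11d, Oas1g, Adar, Lgals3bp, Trim30a, Ifi47, Parp12 and Sp100 were lower in all 4 comparisons, Oas1g with a logFC between -2.55 and -1.42 and Adar, the double-stranded RNA editing enzyme, between -0.95 and -0.73. Gbp5 was higher in all 4 comparisons (1.16 to 1.69) and Cxcl9, a chemokine for T cells, in all 4 (2.54 to 3.43), from 0.0594 to 0.467 CPM at estrus to 0.883 to 5.55 CPM in the mated libraries. Cxcl9 reached the 3 CPM of the filter in mated libraries only, with its highest counts in VAS replicates 2 and 3 (119 and 82). It was thus tested through groups where it is high. Cxcl10 was higher in INT, SVX_VAS and VAS, Tgtp1 in INT and VAS, and Isg20 in SVX and SVX_VAS. Cxcl10 too reached 3 CPM in mated libraries only. Without VAS replicates 2 and 3 in the fit, Tgtp1 did not pass in VAS (0.93, FDR 0.108), Cxcl10 passed also in SVX (0.89, FDR 0.0372), and the VAS logFC of Gbp5 was 1.26 and that of Cxcl9 2.44, both still passing.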

How the data were processed

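RNA-seq was done on 19 pooled endometrial samples in 5 groups. Total RNA (RNA integrity number above the limit set in the study) was made into TruSeq Stranded total RNA libraries and sequenced paired-end. The authors trimmed adapters with AdapterRemoval, aligned reads with STAR to GRCm38/mm10 and counted them per gene with featureCounts, and they deposited raw counts for 49089 genes. The strand setting of the counting and the versions of STAR and featureCounts are not given in the sources used here.

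From the deposited counts, genes reaching 3 CPM in 3 or more libraries were kept (17222 genes, 35.1%). The edgeR 4.0.16 quasi-likelihood test with TMM scaling was fitted over all 5 groups in R 4.3.3, and FDR is the Benjamini-Hochberg adjusted p over all genes tested. A call needed an FDR of 0.05 or less and a change of at least 1.5-fold. CPM in the text are counts on tested genes scaled to the library total with TMM factors, and RPKM are the same per kilobase of exon. The test was tried on simulated data, and no result of that trial is used here. Alternatives were DESeq2 1.42.0, limma-voom (limma 3.58.1), other filters and scaling, a replicate block, and leaving out libraries, of which leaving out VAS replicates 2 and 3 together was for some comparisons added after seeing the data. P-values measure the spread between pools.

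The members and the gene lists were chosen with earlier results of these data known. Named members are 10 chosen by name (Isg15, Ifit1, Irf7, Mx1, Oas2, Zbp1, Ifitm3, Bst2, Gbp2 and Igtp) and up to 6 with the smallest FDR in each comparison. Others are given by counts or ranges, and Ifit2, Oas3 and Oasl1 were picked out after their values were seen. Pathway genes are named where they passed both cutoffs, or as receptors, kinases and factors chosen by name. A result for 1 gene is not reported here.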

Additional observations from a re-analysis of the deposited data

Results flagged for a closer look

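Among 148 groups of 4 libraries searched, 1 for each member and mated group, 10 held a library that stood apart from the other 3 by Dixon's criterion, where chance gives about 7.4. SVX_VAS replicate 2 was the high library for 3 members. Trim25 was at 246.9 CPM there, against 153.3 to 168.3 in the other SVX_VAS libraries. Oas3 was at 40.87 CPM, against 2.439 to 6.105, and Oasl1 at 45.58 CPM, against 3.626 to 7.65. In INT, Gbp2 was at 104.3 CPM in replicate 1, against 43.97 to 53.57 in the others, and Ifit2 was at 28.17 CPM in replicate 2, against 22.53 to 23.17.

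In SVX the libraries that stood apart were low ones. Ifit1 was at 17.99 CPM in replicate 1, against 25.43 to 26.7 in the others, and Dhx58 was at 11.29 CPM in the same library, against 14.47 to 14.85. Mx1 was at 5.373 CPM in replicate 4, against 6.144 to 6.291. In VAS, Parp9 was at 79.71 CPM in replicate 3, against 98.81 to 100.7, and Rtp4 was at 39.51 CPM in replicate 1, against 27.62 to 29.58.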

How the results depend on the processing

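Under other tools, filters and scaling, the replicate block and a fit of only the groups compared, the members called against estrus numbered 21 to 28 in INT, 28 to 29 in SVX, 23 to 27 in SVX_VAS and 17 to 22 in VAS, while 19.5% to 37.5%, 25.3% to 46.6%, 22.9% to 43.4% and 25.3% to 50.8% of all genes tested were called in either direction. Leaving out 1 library at a time gave 15 to 26 in INT, 28 to 28 in SVX, 17 to 28 in SVX_VAS and 13 to 22 in VAS, with the lowest counts without CONT replicate 1 (15 in INT, 17 in SVX_VAS and 13 in VAS) and, in INT, also without CONT replicate 4 (15). In those fits 28.5% to 36.3%, 37.5% to 42.4%, 33.5% to 39.8% and 35.8% to 47.8% of all genes were called. Against INT and among the mated groups, 0 members were called in each of these fits. Over the named members, 1347 values kept their direction and side of the threshold, 45 no longer passed, 13 newly passed and 65 changed direction, 26 of them against estrus and 39 against INT. Of these 65, 0 passed both cutoffs with all libraries or under the alternative. Among these values, the calls of Bst2, Ifit1, Irf9, Isg15, Mx1, Zbp1 and Ifitm3 changed. Of the other members, the calls of Usp18, Ifit2, Ifit3, Ifit3b, Oas3, Oasl1, Stat2, Ifih1, Mx2, Irgm1, Cmpk2 and Rsad2 changed in 1 or more of the fits that left out no single library. The cause was not tested. Whether the replicate numbers pair the samples is not known. Of 36 same-numbered pairs, 15 correlated above 0.1 (lowest -0.688, highest 0.583). No pairs with different numbers were set beside them, so these values cannot decide it. With the replicate block, 27, 28, 25 and 17 members were called in INT, SVX, SVX_VAS and VAS. The lowest member count in any library was 26, and the comparisons with estrus rest on 3 libraries of that group.

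The logFC values that changed direction were these, and the cause was not tested. With limma-voom the logFC was -0.043 for Gbp2 in SVX_VAS minus CONT, 0.037 for Isg15 in SVX_VAS minus INT, 0.0102 for Irf7 in VAS minus INT and 0.67 for Mx1 in VAS minus INT. With the filterByExpr filter the logFC was -0.0102 for Ifitm3 in INT minus CONT and -0.032 for Gbp2 in SVX_VAS minus CONT. Without a filter on low counts the logFC was -0.012 for Gbp2 in SVX_VAS minus CONT and -0.00398 for Oas2 in VAS minus INT. With the replicate block the logFC was 0.078 for Ifitm3 in SVX minus CONT, 0.088 for Ifitm3 in SVX_VAS minus CONT, 0.000495 for Igtp in VAS minus CONT and 0.25 for Mx1 in VAS minus INT. Without VAS replicates 2 and 3 the logFC was 0.16 for Ifitm3 in VAS minus CONT, -0.075 for Gbp2 in VAS minus CONT, -0.0396 for Ifit1 in VAS minus INT, -0.056 for Oas2 in VAS minus INT, -0.49 for Zbp1 in VAS minus INT, 0.11 for Ifitm3 in VAS minus INT and 0.017 for Bst2 in VAS minus INT. In INT minus CONT, leaving out 1 library at a time gave -0.15 to 0.17 for Ifitm3, -0.067 to 0.44 for Gbp2 and -0.072 to 0.39 for Igtp. In SVX minus CONT, leaving out 1 library at a time gave -0.25 to 0.079 for Ifitm3 and -0.20 to 0.0016 for Gbp2. In SVX_VAS minus CONT, leaving out 1 library at a time gave -0.23 to 0.10 for Ifitm3, -0.26 to 0.16 for Gbp2 and -0.20 to 0.0074 for Igtp. In VAS minus CONT, leaving out 1 library at a time gave -0.034 to 0.31 for Gbp2 and -0.18 to 0.058 for Igtp. In SVX_VAS minus INT, leaving out 1 library at a time gave -0.51 to 0.033 for Irf7, -0.88 to 0.22 for Zbp1, -0.57 to 0.075 for Gbp2, -0.47 to 0.0024 for Igtp, -0.31 to 0.25 for Isg15, -0.83 to 0.039 for Oas2 and -0.24 to 0.54 for Ifit1. In VAS minus INT, leaving out 1 library at a time gave -0.29 to 0.082 for Irf7, -0.40 to 0.49 for Mx1, -0.36 to 0.16 for Gbp2, -0.0037 to 0.53 for Isg15, -0.24 to 0.43 for Oas2 and -0.28 to 0.52 for Zbp1.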
